A study of Mus musculus with 24 samples.

Results

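The chromatin accessibility of mouse embryonic stem cells grown in serum was set beside that of cells grown in serum-free medium, in both cases after 12 h of the treatment that degrades CTCF. CTCF is a DNA-binding protein that stops cohesin and so shapes chromatin loops, and in these cells it carries an auxin-inducible degron (AID), a tag through which the auxin IAA triggers its destruction. The comparison uses 4 of the 24 ATAC-seq libraries of the series, chosen by their labels: 2 of the E14 line with the genotype CTCF AID in serum and 2 of the E14 line labelled CTCF AID with an overexpression control in serum-free medium, all with 12 h of IAA. The serum-free medium is described as N2B27 with LIF, the MEK inhibitor PD0325901 and the GSK3 inhibitor CHIR99021. The growth protocol names this medium for every library, whereas the treatment labels of 4 libraries give serum, and the groups follow the latter. The media therefore also differ in cell line and in library set, and medium, line and set cannot be told apart in this comparison. Nothing in the labels says whether the 2 libraries of a group came from separate cultures, so the spread between them may be technical.

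Embryonic stem cells can be held in more than one pluripotent state. In serum with LIF, MEK-ERK signalling is active and cultures mix cells near the naive state with cells that lean towards differentiation. The inhibitor pair in the serum-free medium blocks that signalling, relieves repression by TCF7L1 through β-catenin and holds cells near the naive, preimplantation-like state, in which factors such as ESRRB, KLF4, TFCP2L1 and PRDM14 act on distal enhancers. ATAC-seq reads open DNA through a transposase that inserts adapters there, so enhancers and promoters in use appear as peaks.

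Each library is represented by the authors' peak list. The serum lists held 71773 and 82502 peaks (replicates 1 and 2) and the serum-free lists 120137 and 128794, covering 37.1 and 41.6 Mb against 67.7 and 60.4 Mb. The depth of the libraries is unknown from the lists, and an uncalled region is below a list's limit, which does not mean that it is closed. Windows reaching 250 bp to either side of peak summits were placed along the genome, and 124322 windows called by at least 2 of the 4 libraries were tested. A site of a medium is a window called by both libraries of that medium and by neither of the other. Because a longer list yields more such sites, a site is called held when it also meets the rule after the lists of its own medium are shortened, by the authors' −log10 p, to the 71773 peaks of the shortest list, with the other medium's lists left whole. The strength of a site is given as the percentile of its peak's −log10 p within its own list, where 100 is the strongest.

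The cells of both media had open promoters at embryonic stem cell genes. All 10 promoters of a core pluripotency list, which includes Pou5f1, Sox2 and Nanog, were called in all 4 libraries, as were 62.7% of all protein-coding promoters. Of 16 fibroblast or feeder cell markers, 7 promoters were called in all 4 libraries, those of Twist2 and Tbx15 among them. Another 8 were called in none (Col1a1, Col6a1, Prrx1, Postn, Dcn, Lum, Fap and S100a4), and that of Col3a1 in serum replicate 2 alone. The peak with the highest −log10 q of serum-free replicate 2 was missing from the other 3 lists and present in 5 of the 24.

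The sequences of strong held sites show what is being compared. Each is 300 bp of the GRCm38.p6 reference from RefSeq, plus strand, around the centre of the window, and capitals mark matches, anywhere in the stretch printed, to the motif or motifs named for it. A held serum site comes first. It is intergenic, 35602 bp from Adamts18, a metalloprotease gene, and its capitals are a SOX motif.
Adamts18, chr8:113884067-113884366: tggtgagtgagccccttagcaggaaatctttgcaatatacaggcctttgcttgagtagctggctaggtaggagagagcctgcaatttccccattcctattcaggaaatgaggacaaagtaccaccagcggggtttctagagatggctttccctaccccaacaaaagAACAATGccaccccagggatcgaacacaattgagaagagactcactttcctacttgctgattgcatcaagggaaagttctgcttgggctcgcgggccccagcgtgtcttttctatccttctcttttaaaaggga
The 2 strongest held serum-free sites follow. The first is a GC-rich stretch in an intron of Pwwp2a, 664 bp from a start, with an SP motif. The second is intergenic in a gene desert, 1019049 bp from Amy2a5. Its capitals are an OTX motif more than 100 bp from the centre, outside the span within which short motifs are counted below.
Pwwp2a, chr11:43682572-43682871: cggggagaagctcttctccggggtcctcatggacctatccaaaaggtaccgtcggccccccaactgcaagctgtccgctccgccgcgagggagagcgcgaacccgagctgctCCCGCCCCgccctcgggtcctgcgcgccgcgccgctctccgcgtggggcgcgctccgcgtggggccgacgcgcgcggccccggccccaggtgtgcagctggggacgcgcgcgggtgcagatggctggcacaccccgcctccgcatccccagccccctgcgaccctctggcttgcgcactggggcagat
Amy2a5, chr3:112239638-112239937: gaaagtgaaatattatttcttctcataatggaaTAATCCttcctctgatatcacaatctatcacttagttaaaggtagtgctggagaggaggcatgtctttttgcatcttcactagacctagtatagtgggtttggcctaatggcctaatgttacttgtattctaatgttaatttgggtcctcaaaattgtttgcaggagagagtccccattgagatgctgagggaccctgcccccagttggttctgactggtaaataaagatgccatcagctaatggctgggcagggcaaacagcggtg
The strongest held site of each medium that carries the CTCF consensus (capitals, with no other motif marked) is given because CTCF had been degraded in both. The serum site lies 27898 bp from Slc24a3, a cation exchanger gene, and the serum-free site 463867 bp from Mgmt, a DNA repair gene.
Slc24a3, chr2:145139706-145140005: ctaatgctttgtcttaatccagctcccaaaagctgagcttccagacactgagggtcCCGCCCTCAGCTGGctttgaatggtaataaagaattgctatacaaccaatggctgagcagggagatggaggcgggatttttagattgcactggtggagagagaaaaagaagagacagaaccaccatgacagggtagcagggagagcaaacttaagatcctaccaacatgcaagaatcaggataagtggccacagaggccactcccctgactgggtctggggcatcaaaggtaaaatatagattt
Mgmt, chr7:136430597-136430896: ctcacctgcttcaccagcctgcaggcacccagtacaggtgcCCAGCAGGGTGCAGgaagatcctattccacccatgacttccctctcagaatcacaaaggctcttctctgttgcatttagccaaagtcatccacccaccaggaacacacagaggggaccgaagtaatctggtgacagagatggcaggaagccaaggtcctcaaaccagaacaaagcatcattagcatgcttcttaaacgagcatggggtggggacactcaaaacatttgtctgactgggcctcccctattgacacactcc

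Sites at 6 genes of the naive state, of the pathways that the inhibitors act on or of DNA methylation are shown next, as 200 bp each. They are the strongest held site of each gene and were chosen after their values were seen, from the genes that are always named here. Capitals mark KLF, octamer, SOX, ESRRB or TCF-LEF motifs. The first 4 are serum-free sites, of which that in Esrrb, an orphan nuclear receptor of the naive state, holds an ESRRB motif, and those assigned to Klf4, a naive state factor, and Axin2, a Wnt target and feedback inhibitor, hold a TCF-LEF motif. That near Prdm14, a repressor of DNA methylation and lineage genes, holds none of the 5.
Esrrb, chr12:86385956-86386155: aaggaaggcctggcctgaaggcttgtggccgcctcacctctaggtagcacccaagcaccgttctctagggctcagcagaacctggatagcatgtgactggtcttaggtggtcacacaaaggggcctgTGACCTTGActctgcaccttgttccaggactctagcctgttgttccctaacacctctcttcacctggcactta
Klf4, chr4:55583721-55583920: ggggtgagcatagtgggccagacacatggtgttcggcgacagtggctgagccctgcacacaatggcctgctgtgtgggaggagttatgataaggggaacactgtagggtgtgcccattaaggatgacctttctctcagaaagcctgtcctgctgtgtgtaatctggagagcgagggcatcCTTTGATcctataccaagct
Prdm14, chr1:13132098-13132297: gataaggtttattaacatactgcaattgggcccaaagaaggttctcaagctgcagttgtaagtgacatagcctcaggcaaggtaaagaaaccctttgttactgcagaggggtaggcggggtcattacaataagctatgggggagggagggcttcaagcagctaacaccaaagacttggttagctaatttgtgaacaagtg
Axin2, chr11:108897716-108897915: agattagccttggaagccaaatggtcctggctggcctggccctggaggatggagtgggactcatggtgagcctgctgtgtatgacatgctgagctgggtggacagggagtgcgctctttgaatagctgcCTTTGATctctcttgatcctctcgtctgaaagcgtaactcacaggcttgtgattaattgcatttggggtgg
The other two are serum sites, at Dusp6, an ERK phosphatase gene and ERK target, and at Dnmt3b, a de novo DNA methyltransferase gene. Neither holds any of the 5 motifs in the stretch printed.
Dusp6, chr10:99269371-99269570: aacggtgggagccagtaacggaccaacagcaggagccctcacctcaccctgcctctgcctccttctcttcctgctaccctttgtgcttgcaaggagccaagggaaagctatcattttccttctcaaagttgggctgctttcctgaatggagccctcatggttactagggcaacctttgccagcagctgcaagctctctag
Dnmt3b, chr2:153651724-153651923: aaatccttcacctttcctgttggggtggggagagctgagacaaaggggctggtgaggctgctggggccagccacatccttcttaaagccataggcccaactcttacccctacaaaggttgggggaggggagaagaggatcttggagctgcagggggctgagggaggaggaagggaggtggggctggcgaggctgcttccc

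Serum-free cells had more sites of their own than serum cells, and the size of this excess depended on list length. All 4 libraries called 49488 of the 124322 tested windows (39.8%). With the lists as deposited, 5725 windows (4.60% of those tested) were serum sites and 41409 (33.3%) were serum-free sites. With all 4 lists cut to the shortest length, 88636 windows remained to be tested, of which 11893 (13.4%) were serum sites and 18639 (21.0%) serum-free sites. The held sites, on which the rest of this account rests, numbered 4975 in serum (4.00% of the 124322 tested) and 17512 in serum-free medium (14.1%). The direction was the same in each way of counting, while the ratio of the sets was not. Leaving out serum replicate 1 or 2 gave 10768 or 12137 held serum sites. The rule asks for both libraries of a medium, so leaving out a library can only raise this count.

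**Figure D1:**
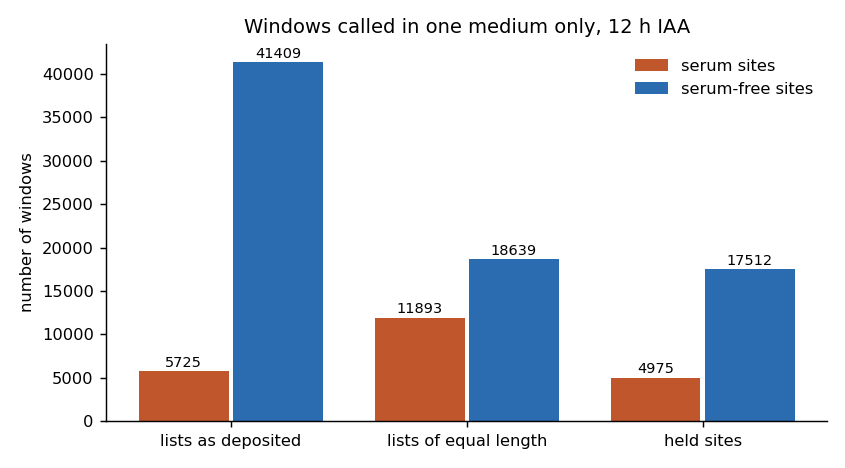
Number of windows (y axis) called by both libraries of one medium and neither of the other, for serum (orange) and serum-free medium (blue), with the lists as deposited, with all lists at 71773 peaks, and as held sites. Serum-free sites outnumber serum sites in each pair of bars, by a margin that shrinks when the lists are of equal length.

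The strength of the held sites is given as a description, since the definition of a held site bears on it. The median percentile of held serum sites in the serum lists was 37.8 and 43.2 (replicates 1 and 2), below the list median of 50. That of held serum-free sites in the serum-free lists was 62.9 and 64.9. Windows open in all 4 libraries had medians of 65.7 and 69.8 in the serum lists and 77.7 and 78.3 in the serum-free lists. Held serum-free sites had to survive a stronger shortening of their lists, which removes their weaker peaks. Without shortening, the medians were 35.4 and 38.9 for serum sites and 42.9 and 44.0 for serum-free sites.

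Both sets lay mostly away from promoters, which were largely shared. Promoters, taken as window centres within 500 bp of an annotated start, made up 15.2% of tested windows and 30.3% of those open in all 4 libraries, but 5.35% of held serum and 3.84% of held serum-free sites. Introns held 39.8% of the serum sites and 53.7% of the serum-free sites, against 43.8% of tested windows. Intergenic positions held 46.6%, 37.3% and 34.2% in the same order. Serum sites lay farther out, with 30.0% of them more than 100 kb from any protein-coding start, against 19.5% of serum-free sites and 16.9% of tested windows. Serum sites were also mostly repeat sequence more often, at 22.1% against 12.1% of serum-free sites and 10.0% of tested windows. Coding exons outside promoters held 5.27% of serum sites, 2.22% of serum-free sites and 3.62% of tested windows. The part of mapping differences between the library sets in the repeat and exon shares was not tested.

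**Figure D2:**
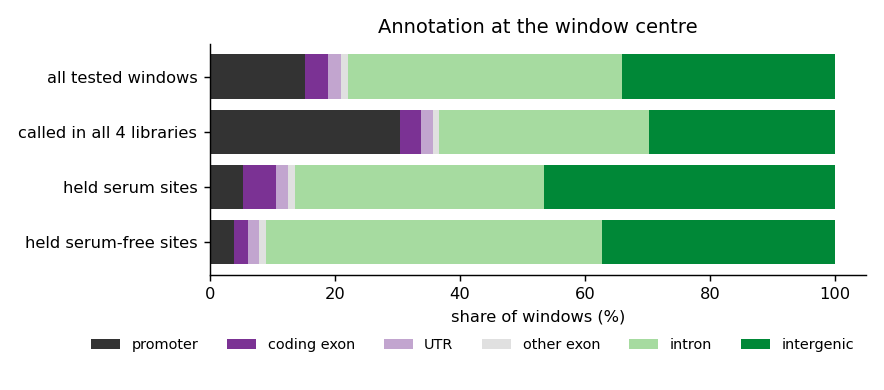
Share of windows (x axis, percent) by annotation at the window centre for all tested windows, windows called in all 4 libraries, and the held sites of each medium. Promoters (black) fill 30.3% of the windows open in all 4 libraries and 5.35% and 3.84% of the held serum and serum-free sites.

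Of the promoters of 21951 protein-coding genes, 13764 (62.7%) were called in all 4 libraries. A promoter called in both serum libraries and neither serum-free library was found for 112 genes (0.510%) and the reverse for 554 genes (2.52%). In the gene lists, which hold from 10 to 24 genes each, only 3 promoters were serum only, and these were picked out after their values were seen. They belong to Bmp4, a signalling ligand of the TGF-β family, and to Tdrd1 and Dpep3, germline genes with CpG-rich promoters. The Bmp4 promoter window, chr14:46390132-46390632 at 168 bp from a start, stood at percentiles 33.1 and 57.1 in the serum lists. It was also called by both serum libraries without IAA and by neither serum-free control library without IAA. Tdrd1 stood at 3.68 and 24.5 and Dpep3 at 15.3 and 16.9, near the bottom of the serum lists. Serum-free only were the promoters of Junb, an immediate early gene (60.2 and 67.4), Lhx1 (58.2 and 59.9), Elf5 (8.96 and 46.2) and Actb (89.6 and 90.2). For Actb, both serum libraries had a peak inside the gene that ended short of the 500 bp taken as the promoter.

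Motifs of naive state and Wnt pathway factors were more common in serum-free sites and less common in serum sites than in the tested windows. The motifs were counted as exact matches on either strand within 100 bp of the window centre, and intervals are exact binomial 95% intervals that cover counting error only. The TCF-LEF motif (ATCAAAG), bound by the effectors of β-catenin, was in 4.21% of tested windows. It was in 7.91% (7.51 to 8.32) of held serum-free sites and 2.57% (2.15 to 3.05) of held serum sites. The ESRRB motif (TCAAGGTCA) was in 1.55% of tested windows, 2.85% (2.61 to 3.11) of serum-free sites and 0.362% (0.215 to 0.571) of serum sites. The KLF motif (CCACACCC) was in 5.51%, 7.85% (7.45 to 8.25) and 2.29% (1.89 to 2.75) in that order. The 3 motifs thus had the same order of the sets, serum-free sites above tested windows above serum sites. Tested windows include the sites themselves, and in the windows open in all 4 libraries TCF-LEF was in 2.86% (2.71 to 3.01), about level with serum sites. ESRRB was in 0.879% (0.799 to 0.965) and KLF in 4.84% (4.65 to 5.03) of those windows, above serum sites and below serum-free sites.

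The SOX motif (AACAATG), bound by SOX2 in these cells, and the octamer (ATGCAAAT), bound by OCT4, which is encoded by Pou5f1, kept that order. SOX was in 4.18% of tested windows, 6.24% (5.88 to 6.60) of serum-free sites and 3.22% (2.74 to 3.74) of serum sites. The octamer was in 2.66%, 3.57% (3.30 to 3.85) and 1.55% (1.22 to 1.93). In the windows open in all 4 libraries SOX was in 3.36% (3.20 to 3.52), about level with serum sites, and the octamer in 2.73% (2.59 to 2.88). The GATA motif (AGATAAG) had a different order, at 1.74% of tested windows, 1.63% (1.45 to 1.83) of serum-free sites and 2.41% (2.00 to 2.88) of serum sites. The AP-1 motif (TGANTCA), bound by the FOS and JUN products of ERK signalling, was in 7.43%, 7.65% (7.26 to 8.05) and 7.82% (7.09 to 8.60), with overlapping intervals. The order seen for TCF-LEF was not limited to naive and Wnt motifs, since FOX (TGTTTAC) had it as well. It was in 3.20% (2.94 to 3.47) of serum-free sites, 2.82% of tested windows and 2.23% (1.84 to 2.68) of serum sites. E-box, TEAD, OTX and SREBP had the order by their shares, but each had an interval that included the share of tested windows. E-box (CACGTG) was in 4.75% (4.44 to 5.07) of serum-free sites, 4.48% of tested windows and 2.49% (2.08 to 2.96) of serum sites. The promoter motif SP (GGGGCGGG) was lower in both sets, at 1.94% (1.74 to 2.16) of serum-free and 2.61% (2.19 to 3.10) of serum sites against 5.50% of tested windows.

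The order of the sets was also examined by base composition and away from promoters. Median GC was 47.9% in serum-free sites, 50.7% in serum sites and 50.1% in tested windows. When the tested windows were divided into 4 parts of near equal size by GC, the TCF-LEF share in the part of lowest GC was 9.34% in serum-free sites, 6.06% in tested windows and 3.68% in serum sites, and in that of highest GC 4.29%, 1.63% and 1.14%. The same order held for TCF-LEF, ESRRB, KLF and SOX in all 4 parts. The octamer kept it in 3 of the 4, and in the part of highest GC it was in 0.813% of serum-free sites, 0.887% of tested windows and 0.324% of serum sites. Away from promoters the TCF-LEF share was 8.05%, 4.65% and 2.59%, and the ESRRB share 2.86%, 1.77% and 0.361%.

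**Figure D3:**
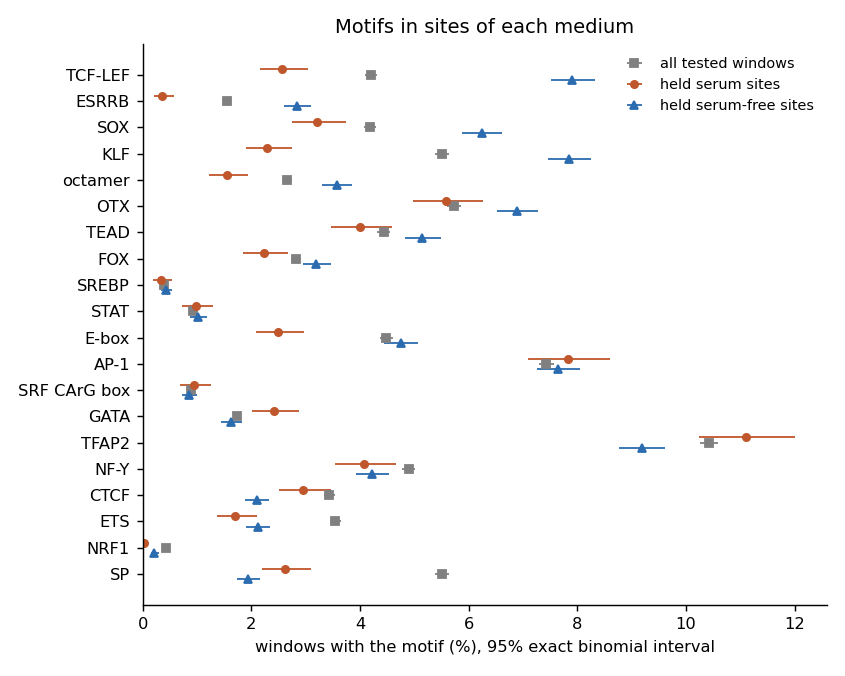
Share of windows with each of the 20 motifs (x axis, percent, with exact binomial 95% intervals) in all tested windows (grey squares), held serum sites (orange circles) and held serum-free sites (blue triangles), ordered by the ratio of serum-free sites to tested windows. TCF-LEF, ESRRB, SOX, KLF and the octamer lie at the top, with serum-free sites to the right of the tested windows and serum sites to the left.

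Whole peak lists of the same libraries differed in these motifs too, but they include the peaks of the held sites and are not separate evidence. At the equal length of 71773 peaks the TCF-LEF motif lay near the summit of 2.68% and 2.79% of serum peaks and of 4.66% and 4.68% of serum-free peaks. The groups did not overlap, and the serum-free mean was 1.71 times the serum mean (4.67% ± 0.0148 against 2.73% ± 0.0788, SD, n = 2 each). The KLF motif was in 3.88% and 4.25% of serum peaks against 6.44% and 6.60% of serum-free peaks. The ESRRB motif was in 0.740% and 0.747% against 1.74% and 1.63%, a ratio of 2.27. In each case the libraries of a medium were close together and the media apart.

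SOX was in 3.21% and 3.37% of serum peaks against 4.57% and 4.61% of serum-free peaks, and the octamer in 2.22% and 2.34% against 3.25% and 3.26%. Promoter peaks went the other way, at 22.2% and 21.8% in serum and 20.4% and 20.4% in serum-free medium. This difference of 1.60 points was 6.95 points with the lists as deposited, 3.22 points with starts within 1000 bp and 18.1 points with a −log10 q of at least 10. Of 21 shares compared, 16 were higher in serum-free medium and 4 in serum without overlap of the groups, and that of AP-1 overlapped. The 4 were promoters, CTCF, GATA and the SRF CArG box. ETS, NF-Y, SP, TFAP2, NRF1 and GATA changed direction with the deposited lists or with a −log10 q of at least 10. In an exact permutation test, two-sided, each of the 20 shares without overlap had a p of 0.333, which 2 libraries against 2 cannot go below, and 0.35 after Benjamini-Hochberg adjustment over the 21, so the design cannot pass 0.05. For AP-1 the exact permutation p was 0.667. The differences of the 20 shares exceeded the spread between replicates.

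The media also differed in these 3 motifs before degradation. At 59786 peaks, the length of the shortest list once the untreated libraries are added, the TCF-LEF share was 2.49% and 2.49% in serum and 3.94% and 3.89% in serum-free medium without IAA. The difference between the media, serum minus serum-free, was −1.42 percentage points without IAA and −2.02 with IAA. For KLF it was −2.10 and −2.28 points, and for ESRRB −0.782 and −0.871 points. Whether the difference itself changed with IAA was not tested.

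Calls of the sites in the other libraries of the series are a description, since medium, line and library set cannot be told apart. Held serum sites were called in 55.6% and 45.4% of cases by the 2 serum libraries without IAA, against 46.6% and 41.3% of all tested windows. The 18 other serum-free libraries called 13.2% to 23.5% of them, although these libraries called 31.2% to 87.9% of tested windows. Held serum-free sites were called in 97.1% and 97.9% of cases by the control line without IAA and in 97.3% to 99.5% by the lines overexpressing wild-type or mutated CTCF. The same 6 libraries called 84.7% to 87.9% of tested windows and 97.3% to 97.9% of the windows open in all 4 libraries compared. The serum libraries without IAA called 8.12% and 5.17% of the held serum-free sites. In the Chd4 and Chd8 knockdown sets, also serum-free, 22.7% to 63.4% of serum-free sites were called, against 31.2% to 63.4% of tested windows. The Chd sets called 48.6% to 85.1% of the windows open in all 4 libraries compared. Held serum-free sites were thus called there about as often as tested windows or less often.

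**Figure D4:**
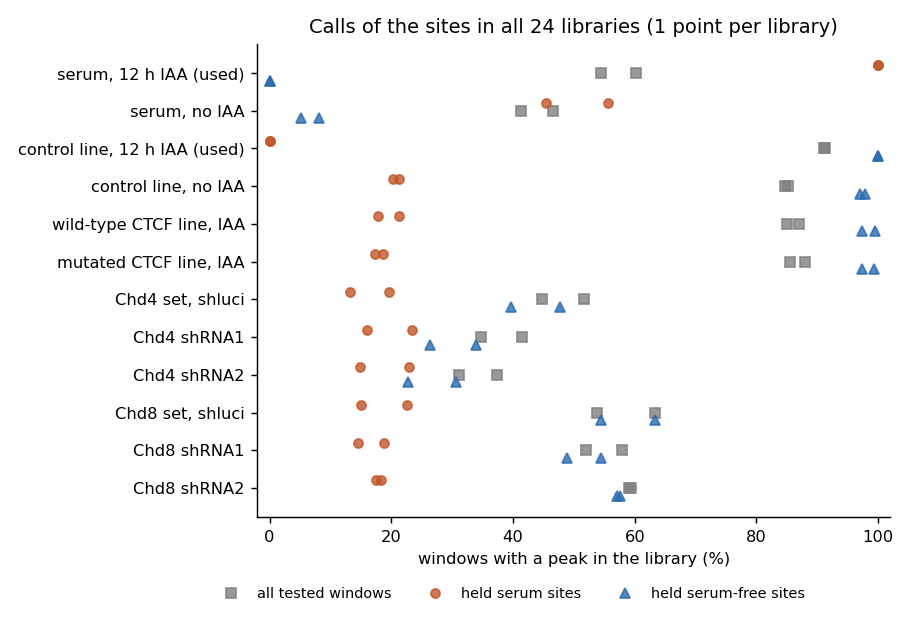
Share of windows with a peak (x axis, percent) in each of the 24 libraries (1 point per library, groups on the y axis) for all tested windows (grey squares), held serum sites (orange circles) and held serum-free sites (blue triangles). Points at 0 and 100 follow from the rule in the 4 libraries it used. Held serum-free sites sit above 97% in the other serum-free libraries of the CTCF lines, at 8.12% and 5.17% in serum without IAA and at 22.7% to 63.4% in the Chd sets.

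A core of sites kept the same medium with and without CTCF. Of the held serum sites, 1085 (21.8%) were called by both serum libraries without IAA and neither serum-free control library without IAA, a pattern found in 1.34% of tested windows. Of the held serum-free sites, 14871 (84.9%) had the mirror pattern, against 33.8% of tested windows. Neither serum library without IAA called 1690 of the held serum sites (34.0%), against 47.8% of tested windows. The untreated serum lists, of 69153 and 59786 peaks, were shorter than those with IAA, and the part of this in the uncalled sites was not tested. A total of 299 held serum sites (6.01%, against 0.276% of tested windows) were called by both serum libraries without IAA and by none of the 18 other serum-free libraries.

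Peaks at the CTCF consensus after degradation were found in both media. The CTCF consensus (within 250 bp, at most 1 mismatch) was in 4267 tested windows (3.43%), of which 2107 (49.4%) were called in all 4 libraries. It was in 147 held serum sites (2.95%, interval 2.50 to 3.46) and 367 held serum-free sites (2.10%, 1.89 to 2.32). Of the 367, 353 (96.2%) had been called by both control libraries without IAA and 77 (21.0%) by both serum libraries without IAA. Of the 147, 91 (61.9%) had been called by both serum libraries without IAA and 74 (50.3%) by both control libraries without IAA. Over all tested windows with the consensus, 90.0% were called by both control libraries and 62.6% by both serum libraries without IAA. The serum-free sites were thus above this share in the control line and below it in serum, and the serum sites were below it in the control line and close to it in serum.

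Tested windows open in all 4 untreated libraries of the 2 media were also followed. Of 2589 such windows with the consensus, 1824 (70.5%) were called in all 4 libraries with IAA, against 34629 of 38575 (89.8%) without it. Tested windows had to be called by at least 2 libraries with IAA. Windows that had lost their peaks therefore did not enter, and these shares can overstate what degradation leaves. Among the 2589 windows with the consensus 63 became held serum sites (2.43%) and 76 held serum-free sites (2.94%). Without the consensus the shares were 0.658% and 0.780%. By the lists as deposited, 69 windows with the consensus were serum sites (2.67%) and 202 serum-free sites (7.80%), against 0.703% and 1.47% of the windows without it. Windows with the consensus thus met the rule for a site of either medium more often than other windows, and the gap between the media was small for held sites and wide for the deposited lists. In the whole lists at 71773 peaks the consensus was in 3.97% and 3.98% of serum peaks and in 3.46% and 3.46% of serum-free peaks, a difference of 0.519 points. Without a mismatch it was 0.183 points. With the consensus allowed only 50 bp from the summit it was −0.0216 points, so its direction depended on the distance allowed. Without IAA the media differed more, since at 59786 peaks the consensus was in 10.4% and 9.95% of serum peaks and 7.57% and 7.62% of serum-free peaks, a difference of 2.59 points. At that length the difference with IAA was 0.637 points.

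Genes of the naive state had more serum-free than serum sites, with shares of windows close to those over all genes. Windows were assigned to the nearest protein-coding start within 100 kb, and 103310 of the tested windows had such a gene, of which 3.37% were held serum and 13.6% held serum-free sites. By gene, 13.0% of the 21951 protein-coding genes had a held serum site and 33.7% a held serum-free site. Of 17 naive pluripotency factors, 16 had a serum-free site and 6 a serum site, with 64 and 9 sites among 374 tested windows (17.1% and 2.41%). Listed genes had more windows than most genes, so the share of windows is the fairer measure. Within 20 kb the shares of the naive list were 13.9% and 2.65%, beside 11.5% and 2.93% over all genes. Adjacent windows can fall under 1 wide peak, so sites of a gene are not independent.

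Nr5a2, a nuclear receptor that can act in place of Oct4 in reprogramming, had 11 serum-free sites and no serum site among 29 windows. Its strongest, chr1:136951248-136951748 in an intron 1936 bp from a start, stood at percentiles 87.1 and 90.7. A site at an annotated start of Nr5a2, 161 bp away, stood at 74.1 and 82.9, but over all its annotated starts the promoter of Nr5a2 was called in all 4 libraries, in serum at 74.9 and 88.1. Esrrb had 8 serum-free sites and no serum site among 50 windows. That of the sequence above, in an intron 24939 bp from a start, stood at 84.2 and 84.8, and was called by both control libraries and neither serum library without IAA. Tfcp2l1, a LIF-STAT3 target, also had 8 and none, although 2 of the 8 lay under a single peak.

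The 4 sites of Klf4 were all serum-free, the strongest at 88.3 and 88.9 and 51355 bp from the start. Prdm14 had 5 serum-free sites, led by that shown above at 86.4 and 88.3, and 1 serum site at 22.6 and 33.5. The core list was near the background, at 13.7% serum-free and 3.42% serum of 117 windows. Within it, Sox2 had 7 serum-free sites and 2 serum sites, Nanog 3 and 1, and Pou5f1 1 and none. The serum site of Nanog, 39542 bp away, stood at 63.8 and 71.8, yet 14 of the 18 other serum-free libraries called it.

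Wnt pathway genes had 17.7% serum-free and 1.06% serum sites among their windows, beside 13.6% and 3.37% over all genes. Of 19 genes, 13 had a serum-free site and 3 a serum site, with 50 and 3 sites among 283 windows. Over all genes 33.7% had a serum-free site and 13.0% a serum site. Tcf7l2, a TCF transcription factor, had 8 serum-free sites and no serum site. Axin2 had 7 and none, with 1 at a start (chr11:108922855-108923355, 76 bp away) at percentiles 41.4 and 64.7. Over all its annotated starts the promoter of Axin2 was called in all 4 libraries, in serum at 71.2 and 79.8. Lef1 had 6 and 1, and Ctnnb1, the β-catenin gene, 6 and none. Wnt11, a Wnt ligand, was among the 10 genes with the most serum-free sites, at 12 and none.

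MEK-ERK response genes, whose pathway is inhibited in the serum-free medium, had serum sites more often than most lists. Of 22 genes, 13 had a serum site and 18 a serum-free site, with 27 and 42 sites among 340 windows (7.94% and 12.4%). Over all genes the shares were 3.37% and 13.6% of windows and 13.0% and 33.7% of genes. The serum-free share of windows was thus near that over all genes. Myc had 5 serum sites, 1 of them 49761 bp away at percentiles 34.0 and 61.0, and 2 serum-free sites. That site of Myc was also called by 1 of the control libraries without IAA and by 7 of the 18 other serum-free libraries, and another, 1912 bp away at 6.40 and 50.8, by both control libraries and by 10 of the 18. Dusp6 had 2 of each. Its stronger serum site, shown above at 6240 bp from the start, stood at 63.0 and 74.4, and was called by both serum libraries without IAA and by none of the 18 other serum-free libraries. The stronger serum-free site of Dusp6, 2295 bp from a start, stood at 83.7 and 83.8. Spry2, an inhibitor of receptor signalling, had 2 serum and 4 serum-free sites, and Etv5, an ERK-induced ETS factor, 1 and 5. The serum site of Etv5 was called by both control libraries without IAA and by 12 of the 18 other serum-free libraries.

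Neural regulators had more held serum than held serum-free sites, a direction that turned with the deposited lists. Of 17 genes, 10 had a serum site and 5 a serum-free site, with 17 and 12 sites among 191 windows (8.90% and 6.28%). Over all genes the shares of windows were 3.37% and 13.6%. With the sites of the deposited lists, the list had 18 serum and 32 serum-free sites (9.42% and 16.8%, beside 3.95% and 32.4% over all genes), and 12 of its genes had a serum-free site. With assignment limited to 20 kb, it had 11 and 3, the primed pluripotency list 8 and 6, and the MEK-ERK list 11 and 10. Pax3 had 2 serum sites and 1 serum-free site, and Nkx2-2 had 2 of each, the stronger serum site at 55.5 and 72.0. That site of Nkx2-2 was also called by both serum-free control libraries without IAA and by 7 of the 18 other serum-free libraries. Sox1 had 1 and 2 and Meis2 2 and 6. The serum sites of Pax3 stood at 6.74 and 44.4 and at 23.0 and 28.1, in the weaker part of the lists. Primed pluripotency and Nodal pathway genes had 11 serum and 21 serum-free sites among 200 windows (5.50% and 10.5%). Nodal, Foxd3 and Otx2 each had 1 serum and 3 serum-free sites.

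Sterol and fatty acid synthesis genes, which SREBP factors control, had no held serum site. Of 171 windows 28 were serum-free sites (16.4%), at 14 of 24 genes, and 0 were serum sites, which allows a share of up to 1.75%. Over all genes 13.6% of windows were serum-free and 3.37% serum sites, at 33.7% and 13.0% of genes. Fdft1, the squalene synthase gene, and Fasn, the fatty acid synthase gene, had 4 serum-free sites each. Srebf1, which encodes the regulator SREBP1, had 3, the strongest at 82.7 and 78.5 in an intron. All 24 promoters were called in all 4 libraries, and Hmgcs1 had no site of either medium. With the sites of the deposited lists 1 gene had a serum site.

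Targets of BMP and TGF-β had 9 serum and 35 serum-free sites among 218 windows (4.13% and 16.1%). Smad7, an inhibitory SMAD, had 1 and 9, and Id4 1 and 6. Id1, a BMP target and inhibitor of differentiation factors, had 1 serum-free site at 76.3 and 61.6 and no serum site. SRF and YAP-TEAD targets had 5 and 16 sites among 161 windows (3.11% and 9.94%). Both shares of this list were below those over all genes.

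Enzymes of DNA methylation, which is lower in cells held with the 2 inhibitors, had 6 serum and 13 serum-free sites among 158 windows (3.80% and 8.23%). Dnmt3b had 1 serum site and no serum-free site. The serum site, in an intron 2207 bp from a start, stood at 57.6 and 66.9 and was called by both serum libraries and neither control library without IAA, but by 7 of the 18 other serum-free libraries. Dnmt3a had 2 serum sites, the stronger at 69.0 and 66.5, and 1 serum-free site. The dioxygenase genes Tet1 and Tet2 had none and 6, and 3 and 2, in the same order. Dnmt3l, a cofactor of the DNMT3 enzymes, had no site of either medium. Germline genes had 3 and 8 sites among 52 windows, and the promoter of Dazl, an RNA-binding protein gene of germ cells, was called in all 4 libraries.

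The remaining lists had sites of both media. Endoderm and mesoderm regulators had 9 serum and 24 serum-free sites among 192 windows (4.69% and 12.5%). Trophoblast regulators had 7 and 15 among 140 (5.00% and 10.7%). The CTCF and cohesin genes had 3 and 9 among 112 (2.68% and 8.04%), and all 11 promoters were called in all 4 libraries. Ctcf itself had no site of either medium. The fibroblast or feeder markers had 2 and 12 among 75 (2.67% and 16.0%), beside 3.37% and 13.6% over all genes.

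**Figure D5:**
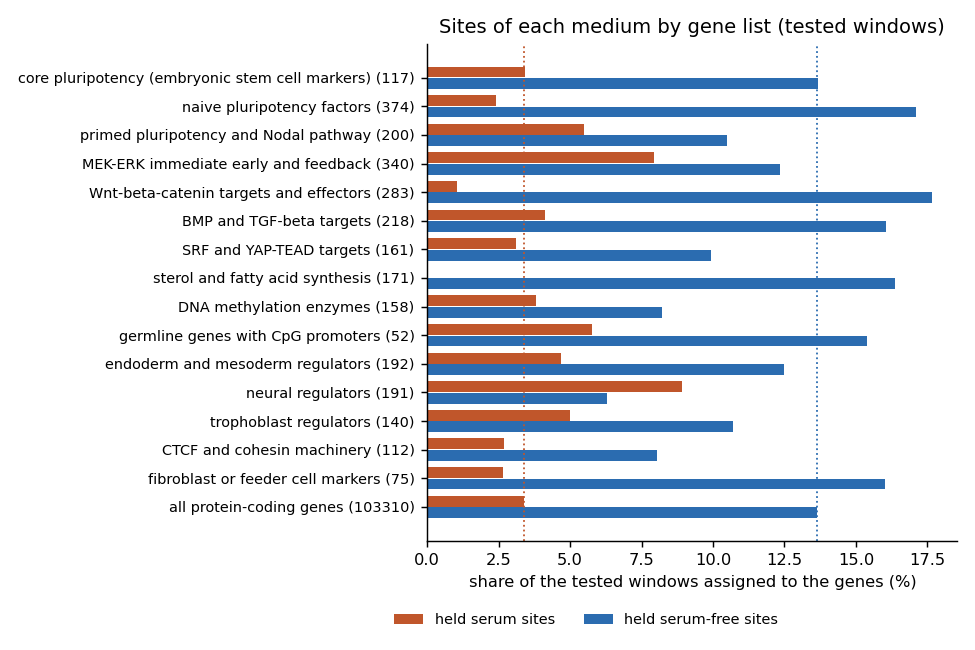
Share of the tested windows assigned to each gene list (number of windows in brackets) that are held serum sites (orange) or held serum-free sites (blue), in percent. Dotted lines mark the shares over all protein-coding genes, 3.37% and 13.6%. Neural regulators have the longest orange bar, at 8.90%, and Wnt genes the longest blue bar, at 17.7%.

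The 10 genes with the most held sites were ranked in each medium, a count that also grows with the number of tested windows of a gene. In serum, Nrxn3, a synaptic adhesion gene, Enc1 and Dapk1, a death-associated kinase gene, had 6 sites each. Pde4d (of 76 tested windows), Phactr3 (of 11), Tle4 (of 27) and Myc (of 25) had 5, and Anks1b and Zic4 had 4. The strongest site of Nrxn3, in a coding exon, stood at 81.2 and 82.4. Its other 5 stood at 20.6 to 81.5 in serum replicate 1 and 13.4 to 21.8 in serum replicate 2, with 4 of the 5 called by neither serum library without IAA. Enc1 had 1 serum-free site, Pde4d 7, Tle4 1 and Myc 2, and the other 5 had none.

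In serum-free medium, Tiam1, an activator of RAC, had 17 sites among 66 tested windows, Myo10, an unconventional myosin gene, 15, and Palld, an actin-binding protein gene, 14. Epb41l4b, Mgat5 and Ank3 had 13 each, and Lhfpl2 (of 29 windows), Wnt11 (of 27), Mtss1 (of 32) and Etl4 (of 76) had 12. The strongest sites of Palld and Lhfpl2 had a lower percentile of 94.0 and 93.6 over their libraries. Of these 10 genes only Myo10, with 2, and Mtss1, with 1, had a serum site.

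The held serum sites near Adamts18, Pdc, Cavin4, Ccdc7a, Slc39a11, Anks1b and Cdh19 were among the strongest, at percentiles of 93.2 to 99.3, and each was called by both serum libraries without IAA. That near Adamts18 stood at 97.8 and 99.3 and was called by 1 of the 18 other serum-free libraries. Those near Cavin4, and in introns near Ccdc7a and Slc39a11, were called by none of the 18. Those near Pdc, Cdh19 and Anks1b were called by 11, 6 and 3 of the 18. The sites near Pdc and Anks1b were each called by 1 control library without IAA. The sites near Pdc, Ccdc7a and Cdh19 were mostly repeat sequence, which took up 80.4% of the window near Cdh19 and more near the other two.

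The 8 strongest held serum-free sites stood at 97.9 to 99.8. All were called by both control libraries without IAA, and 7 of the 8 by neither serum library without IAA. The exception, near Atp2b1, was called by 1 of them. The sites near Pdzrn3, Nhlh1, Gucy1a2 and Atp2b1 were called by all 18 other serum-free libraries, the Chd sets included. Over the whole set this held for 717 of the 17512 held serum-free sites (4.09%), against 9.91% of tested windows, and at least 9 of the 12 Chd libraries called 21.1% of them, against 30.9% of tested windows. That of Pwwp2a, at 99.8 and 99.8, was called by 10 of the 18 and had a GC content of 71.3%. The sites near Pdia5 and Gucy1a2 held a TCF-LEF motif.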

How the data were processed

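Peak lists of ATAC-seq libraries were used, 1 per library, on mm10 (GRCm38). Per the submitters' processing notes, Trim Galore, Bowtie2, MACS2 and deepTools were used on mm10, with no versions or settings given. The deposited scores, −log10 of p and of q, are the authors' own values for a peak within its list and were used here to rank and filter peaks, not to compare levels. Reads were not used here. Only peak intervals, summits and these scores entered. Windows reaching 250 bp to either side of a summit were placed from the highest percentile of −log10 p down and without overlap (173950 windows, 49628 called by 1 library only), and a library called a window that any of its peaks overlapped. Annotation was GENCODE vM21 basic, and sequence was RefSeq GRCm38.p6.

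Of 20 motifs, the CTCF consensus of 14 bp (at most 1 mismatch, 250 bp around the centre) and 19 short motifs (exact, 100 bp) were searched on both strands. Motifs can overlap each other. Motif matches are a description and not binding sites. Shares were compared by two-sided exact permutation tests of 2 against 2 libraries, adjusted over 21 shares. No test per window was run. Peaks named rep2 and rep4 inside the serum lists belong to libraries labelled replicates 1 and 2, and same-numbered libraries of the media did not deviate together (correlation 0.0167 over 49488 windows), so numbers do not pair the libraries. At most 171 intervals were identical within a pair of the libraries used.

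Named sites were the 8 with the highest lower percentile per medium. Named genes were up to 4 per list, the 10 with most held sites per medium and 14 set by name. A gene and its sites that these rules also name are not reported here. The members, lists and motifs were chosen with earlier results of these data known. Of the listed symbols, Oct6 was not in the annotation, while Tbxt, Ctgf and Cyr61 were present as T, Ccn2 and Ccn1. The scripts were tested on simulated data. Python 3.11.15, numpy 2.4.6, pandas 2.3.3 and scipy 1.17.1 were used.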

Additional observations from a re-analysis of the deposited data

How the results depend on the processing

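The counts of sites moved with the lists and the call rule, while serum-free sites outnumbered serum sites in each setting run. With all lists at the shortest length there were 11893 serum and 18639 serum-free sites, and at 50% of it 9536 serum-free sites, 860 held serum and 4319 held serum-free sites. With peaks of a −log10 q of at least 10, serum sites numbered 1235, held serum sites 1031 and held serum-free sites 6553. Leaving out 1 library gave 7783 to 15337 serum sites, 47289 to 60101 serum-free sites, 6830 to 12137 held serum sites and 20856 to 24013 held serum-free sites. Without serum replicate 1 there were 15337 serum sites and 10768 held serum sites, and without serum replicate 2 there were 12137 of each. By construction, fewer peaks or fewer libraries enter in these settings, and leaving out a library can only raise the counts. Among the shares, the CTCF consensus within 50 bp of the summit reversed to −0.0216 points. AP-1 reversed at 50% of the shortest length (0.128 points). With the lists as deposited ETS (0.469), NF-Y (0.191), SP (1.24) and TFAP2 (0.470) reversed, and with a −log10 q of at least 10 ETS (2.35), NF-Y (1.62), SP (3.53), TFAP2 (1.33), GATA (−0.114) and NRF1 (0.215) reversed. The cause of these reversals was not tested. The other 141 of 152 settings of the 19 short motifs kept their direction, TCF-LEF, KLF, ESRRB, SOX and octamer included in all of theirs. With a replicate block the promoter difference was 1.60 points and the CTCF difference 0.519 points, each with an exact sign-flip p of 0.5, the smallest possible, and since the numbers do not pair the libraries this is only a formal check. Of the gene list counts, 20 of 32 moved by over 1.5 times when assignment stopped at 20 kb and 8 of 32 with the sites of the deposited lists. Motif shares within sites as deposited, of equal length or away from promoters were alternatives chosen after seeing the data, and in them TCF-LEF was in 6.40% of serum-free sites of the deposited lists. Depth limits every count, since it is unknown here and a window under a list's limit counts as uncalled.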

Other observations

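The held sites were spread over all autosomes and the X chromosome. Per 100 tested windows, held serum-free sites numbered 11.2 on chromosome 19 and 16.5 on chromosome 6, the lowest and highest of these chromosomes. Held serum sites ran the other way on the same 2 chromosomes, at 5.17 on chromosome 19 and 3.02 on chromosome 6, again the extremes. No test was run on this.

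The TFAP2 motif (GCCNNNGGC) was in 11.1% (10.2 to 12.0) of held serum sites, 9.18% (8.76 to 9.62) of held serum-free sites and 10.4% of tested windows. The NRF1 motif (GCGCATGCG), found mostly at promoters, was in 1 of 4975 held serum sites and 38 of 17512 held serum-free sites, against 535 of 124322 tested windows.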
